A study of Mus musculus with 12 samples.

Results

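The genes described here are 38 interferon-stimulated genes of the mouse, among them Iigp1, an immunity-related GTPase gene. They were taken as a list of symbols, with no threshold on a measured value, and were found among the 55335 gene identifiers of every count file through the GRCm38 annotation. Of the 38 genes, 36 passed the filter on low counts, which kept 16932 genes in all. The 2 that did not pass were Isg15, with 0 to 10 counts in a library, and Ifi47, with 0 counts in every library.

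Cardiomyocyte RNA of male mice was sequenced from C57BL/6J mice (labelled Wt) and from ApoE KO mice. The latter carry the Apoe tm1Unc knockout allele on a B6.129P2 background. Both genotypes ate standard chow (CD) or a Western-type high fat, high cholesterol diet (HFD). All libraries are labelled with an age of 7 to 8 weeks and with 7 weeks of diet. Whether that age is the age at the start of the diet or at collection was not settled here. The 4 groups are written WT_CD, WT_HFD, ApoeKO_CD and ApoeKO_HFD, with 3 libraries in each group but 2 used in WT_HFD. The series deals with metabolic stress and heart failure in which the ejection fraction is preserved. Comparing ApoeKO_HFD with WT_CD asks what genotype and diet do together, and the remaining comparisons take genotype and diet apart. The knockout is present in the whole animal and not only in cardiomyocytes. Neither separate mice for the replicates nor the purification of the cardiomyocytes is stated in the labels, so the spread behind each p-value may be technical.

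Type I interferons signal through the receptor chains IFNAR1 and IFNAR2 and the kinases JAK1 and TYK2 to a complex that includes STAT2 and IRF9 and binds the interferon-stimulated response element (ISRE). Interferon gamma signals through IFNGR1 and IFNGR2 to the gamma-activated site (GAS), and it is a strong inducer of IRF1 and of the guanylate-binding and immunity-related GTPases. The induced genes include sensors of viral nucleic acid, antiviral effectors such as the IFIT, OAS and MX proteins, membrane restriction factors, and GTPases that act on the vacuoles of intracellular pathogens. In the heart, cardiomyocytes, endothelial cells and macrophages can all respond to interferon.

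The promoter windows of the members carry both kinds of element. The stretches below come from genes picked because they differ in how they lie across the 4 groups, and only windows with a match were printed. The windows of Irf7, Xaf1 and Trim25, which were picked with them, held neither motif. Of the 38 genes, 28 had a window in the RefSeq table of GRCm38.p6, which reaches from 250 bases before to 50 bases after a start site. The ISRE core was searched as GAAA, 2 bases of any kind and a second GAAA, and the GAS as TTCNNNGAA, on both strands, with overlapping matches counted. The ISRE core was found in 17 of the 28 genes, against 3.44% of all 32851 windows in the table. The GAS was found in 8 of the 28, against 8.3% of all windows, and 5 genes held both. The units differ: a gene was counted if any of its windows held a match, with 32 windows for the 28 genes, whereas the percentages are per window. A match is a run of letters and was not tested as a binding site. No window was found for Iigp1, Oas2, Mx1, Mx2, Usp18, Rtp4, Ifi27, Dhx58, Zbp1 and Parp14. Each stretch is written 5′ to 3′ on the strand of its gene, with every match to either motif in capitals. The 2 immunity-related GTPase genes and Gbp2 come first.
Irgm1, chr11:48871428-48871457, minus strand, 2 overlapping ISRE cores: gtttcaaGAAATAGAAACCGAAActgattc
Igtp, chr11:58199456-58199555, plus strand, 1 GAS and 1 ISRE core: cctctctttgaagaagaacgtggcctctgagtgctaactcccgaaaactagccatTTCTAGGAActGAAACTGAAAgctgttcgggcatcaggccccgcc
Gbp2, chr3:142620594-142620623, plus strand, 1 ISRE core on the opposite strand: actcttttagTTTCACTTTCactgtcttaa
Irf1, chr11:53769878-53769977, plus strand, 1 GAS and no ISRE core: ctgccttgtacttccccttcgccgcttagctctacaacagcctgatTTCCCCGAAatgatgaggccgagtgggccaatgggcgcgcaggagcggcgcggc
Ifit1, chr19:34640749-34640848, plus strand, 2 ISRE cores on the opposite strand: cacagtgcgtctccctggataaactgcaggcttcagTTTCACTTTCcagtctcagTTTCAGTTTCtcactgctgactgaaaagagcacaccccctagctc
Ifit3, chr19:34583345-34583444, plus strand, 2 ISRE cores on the opposite strand: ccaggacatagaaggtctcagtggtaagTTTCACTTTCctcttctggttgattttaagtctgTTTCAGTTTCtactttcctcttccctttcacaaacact
Rsad2, chr12:26456518-26456617, minus strand, 1 ISRE core on the opposite strand: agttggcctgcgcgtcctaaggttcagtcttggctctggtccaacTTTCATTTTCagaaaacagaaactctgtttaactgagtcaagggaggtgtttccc
Bst2, chr8:71537548-71537647, minus strand, 2 ISRE cores that overlap each other and 1 GAS: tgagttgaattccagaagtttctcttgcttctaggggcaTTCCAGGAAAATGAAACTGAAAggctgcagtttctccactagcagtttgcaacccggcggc
Ifitm3, chr7:141010714-141010743, minus strand, 2 ISRE cores, the second overlapping 1 GAS: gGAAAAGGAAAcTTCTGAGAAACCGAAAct
Irgm1, whose level was lower in the WT_CD libraries, and Rsad2, Ifit1 and Ifit3, whose levels were higher in some of them, all held the ISRE core in their window. These genes were picked, and the windows of Irf7 and Oasl2, whose highest level was in WT_CD replicate 3, held neither motif.

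The 11 libraries used held 22130323 to 46424614 counts, of which 51.5% to 71.3% lay on mitochondrial genes, leaving 9340449 to 16412505 on nuclear genes. The library left out, WT_HFD replicate 3, had a total of 1347110. Of its counts on 717 pairs of a coding and a non-coding gene on opposite strands, 75.1% lay on the non-coding gene, against 0.56% to 1.04% in the other libraries. Its header also carries the same column name as the file of ApoeKO_CD replicate 1. Apoe, the targeted gene, went against the labels on chow: it stood at 2.12 to 3.61 CPM (the count divided by the TMM-scaled library size, in the usual unit) in WT_CD and at 6.93 to 25.3 CPM in ApoeKO_CD. On the high fat diet it stood at 8.44 and 18.9 CPM in WT_HFD and at 1.94 to 3.16 CPM in ApoeKO_HFD. The group names below therefore mean the libraries so labelled. The 8 cardiomyocyte markers summed to 38080 to 51830 CPM, the 10 endothelial markers to 57.1 to 144 CPM and the 10 macrophage markers to 5.59 to 32.8 CPM. The cardiomyocyte sum was higher in every WT_CD library (48360 to 51830 CPM) than in all others. It was 38420 and 41280 CPM in WT_HFD, 43270 to 45120 in ApoeKO_CD and 38080 to 44140 in ApoeKO_HFD. Against WT_CD, 5 of the 8 lay below 0 and 3 above in each of the other groups, with 0 called. The part of this in the members' values was not tested.

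Most of the interferon-stimulated genes had low RNA levels. Per kilobase of exon, the median gene tested stood at 0.687 CPM, and 6 of the 38 genes had a mean above it. In all, 33 of the 38 had a mean under 1 CPM per kilobase. The 5 highest were Ifitm3 at 2.25, Iigp1 at 1.97, Ifi35 at 1.23, Trim25 at 1.23 and Igtp at 1.06 CPM per kilobase over the 11 libraries. Neighbours in this order overlapped: single libraries ranged from 0.93 to 4.55 CPM per kilobase for Ifitm3 and from 0.85 to 4.10 for Iigp1. Ifitm3 encodes a membrane protein that blocks virus entry, Ifi35 a cytoplasmic interferon-induced protein and Trim25 a ubiquitin ligase that acts on RIG-I. At the lower end, Oas3, an oligoadenylate synthetase gene, had a mean of 0.02 CPM per kilobase and Zbp1, a sensor of Z-form nucleic acid, 0.06. Only counts of 0 were listed for Ifi47, an immunity-related GTPase gene. Its exons overlap those of Olfr56 on the same strand by 111 bases, 4.5% of their length, and why its counts were 0 was not tested.

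Some members share sequence with a close copy, so their counts are uncertain. Of all 50-base stretches of the transcripts, Oas1a shared 57.6% with Oas1g, Ifit3 shared 51.2% with Ifit3b and Ifit3b shared 44.5% with Ifit3. Igtp shared 11.8% with Irgm2 and Gbp7 10.5% with a pseudogene. For Iigp1 the share with any other gene was 1.7%.

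**Figure D1:**
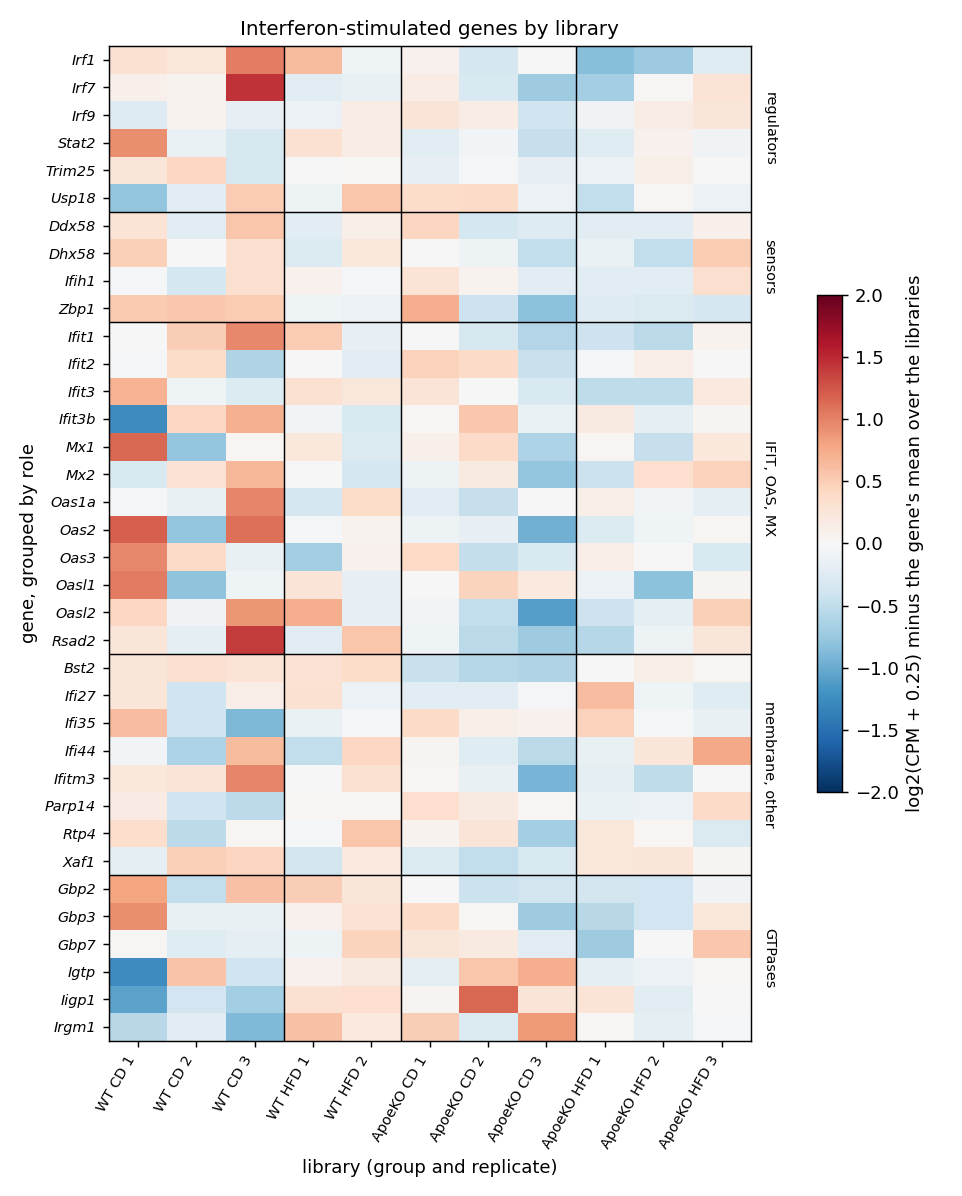
Heat map of the 36 tested interferon-stimulated genes (rows, grouped by role) in the 11 libraries (columns), with colour giving log2(CPM + 0.25) minus the mean of the gene over the libraries. Iigp1, Irgm1 and Igtp are blue in WT_CD 1 and 3, while many IFIT, OAS and MX genes are red there, and 13 genes have their lowest level in ApoeKO_CD 3.

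Of the 36 genes tested, 1 was called at an adjusted p under 0.05 in any of the 6 comparisons: Iigp1, higher in ApoeKO_CD than in WT_CD. That comparison called 86 of all 16932 genes, or 0.508%. None of the 36 was called in the other comparisons, where the share of all genes called was 0.154% in ApoeKO_HFD against WT_CD, 0.207% in WT_HFD against WT_CD, 0.0709% in ApoeKO_HFD against ApoeKO_CD, 0.0472% in ApoeKO_HFD against WT_HFD and 0.219% in the interaction of diet with genotype. At an unadjusted p under 0.05 by edgeR, 11 of the 36 passed in ApoeKO_CD against WT_CD, 9 of them lower and 2 higher, beside 15.9% of all genes (7.91% lower and 7.96% higher). In ApoeKO_HFD against WT_CD 7 passed, 6 lower and 1 higher, beside 14.2% of all genes (6.58% lower and 7.65% higher). The 2 comparisons share the WT_CD libraries. In WT_HFD against WT_CD 2 of the 36 passed, beside 12.9% of all genes. In ApoeKO_HFD against ApoeKO_CD 2 passed, beside 1.53%, and in ApoeKO_HFD against WT_HFD 1 passed, beside 2.83%. The interaction had 2, beside 8.2%. The alternative tool DESeq2 called 1 member each in ApoeKO_HFD against WT_CD, in WT_HFD against WT_CD and in the interaction, besides Iigp1 in ApoeKO_CD against WT_CD.

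The median log2 fold change of the 36 genes was −0.47 in ApoeKO_CD against WT_CD, with 26 of 36 below 0, while the median of all genes tested was −0.01 with 51.3% below 0. It was −0.37 in ApoeKO_HFD against WT_CD, again with 26 of 36 below 0, and −0.14 in WT_HFD against WT_CD, with 24 of 36 below 0. The last turned to 0.11 with all 12 libraries. These 3 medians share the WT_CD libraries. Without WT_CD replicate 3 the median in ApoeKO_HFD against WT_CD was −0.18, and without WT_CD replicate 1 that in ApoeKO_CD against WT_CD was −0.22. The latter was −0.24 without ApoeKO_CD replicate 3, and also −0.24 over the members with at least 50 counts in 3 libraries.

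The role groups had medians on both sides of 0, and the difference between the groups was not tested. In ApoeKO_CD against WT_CD the 6 tested guanylate-binding and immunity-related GTPases had a median log2 fold change of 0.46, with 4 of 6 above 0, whereas the 12 tested IFIT, OAS, MX and related effectors had a median of −0.89, with 1 of 12 above 0. The 6 regulators had a median of −0.42, the 4 sensors −0.56 and the 8 membrane and other genes −0.36. In ApoeKO_HFD against WT_CD the medians were 0.15 for the GTPases and −0.73 for the effectors, and in WT_HFD against WT_CD they were 0.36 and −0.49. The 3 comparisons share the WT_CD libraries.

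**Figure D2:**
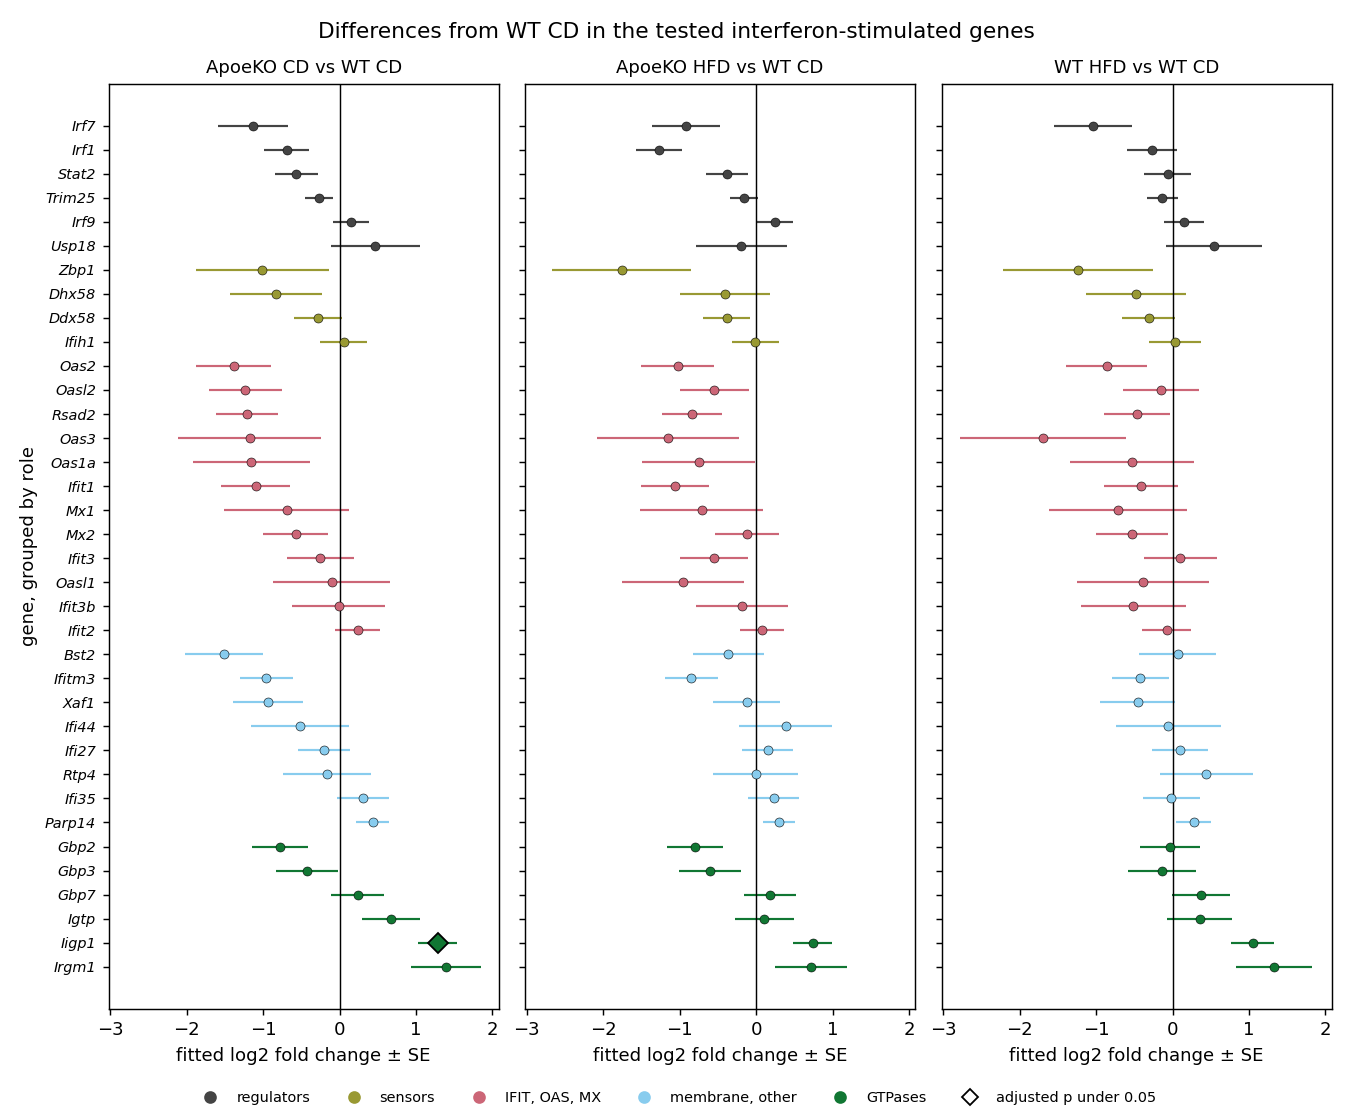
Fitted log2 fold change against WT_CD (x axis) of the 36 tested interferon-stimulated genes (y axis, coloured by role) in ApoeKO_CD, ApoeKO_HFD and WT_HFD, with bars of 1 standard error. Iigp1 at 1.28 is the call, drawn as a diamond, and the IFIT, OAS and MX genes lie left of 0 with the exception of Ifit2 in the first and second panels and Ifit3 in the third.

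Iigp1 encodes an interferon-inducible GTPase that is loaded onto the vacuoles of intracellular parasites and bacteria. Its level was 4.93, 8.04 and 6.50 CPM in the 3 WT_CD libraries and 11.03, 23.9 and 12.7 CPM in the 3 ApoeKO_CD libraries. In the 2 WT_HFD libraries it was 13.2 and 13.5 CPM, and in the 3 ApoeKO_HFD libraries 12.8, 8.99 and 10.6 CPM. Every library of the other 3 groups lay above every WT_CD library, and ApoeKO_CD replicate 2 lay above all others. The group means were 6.49 ± 1.56 CPM (SD, n = 3) in WT_CD, 10.8 ± 1.91 (SD, n = 3) in ApoeKO_HFD, 13.4 ± 0.19 (SD, n = 2) in WT_HFD and 15.9 ± 6.98 (SD, n = 3) in ApoeKO_CD. In this order ApoeKO_CD and WT_HFD overlapped.

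Iigp1 rose by 1.28 ± 0.25 (SE) on the log2 scale in ApoeKO_CD against WT_CD, a 2.4-fold difference (adjusted p = 0.0323, edgeR). In WT_HFD against WT_CD the difference was 1.05 ± 0.28 (adjusted p = 0.171, edgeR), and in ApoeKO_HFD against WT_CD it was 0.74 ± 0.25 (adjusted p = 0.234, edgeR). Both share the WT_CD libraries with the call. DESeq2 called the first (adjusted p = 0.0398), and edgeR without the filter on low counts called both (adjusted p = 5.38e-06 and 0.00279). With the filter, even the unadjusted p by edgeR was larger, at 0.0016 and 0.0101. Leaving the filter out thus changed the fit itself and not only the adjustment, and these 2 values are to be read with caution. The call in ApoeKO_CD against WT_CD was lost without WT_CD replicate 1 (edgeR adjusted p = 0.0924), WT_CD replicate 3 (0.144), ApoeKO_CD replicate 2 (0.116, with a difference of 0.88) or ApoeKO_HFD replicate 3 (0.0541). It was also lost with voom (0.208), with only the 2 groups in the fit (0.0909) and with all 12 libraries (0.765). The sample weights of voom, which set how much each library counts, were 0.68, 0.37 and 0.46 in WT_CD. In the other libraries they were 0.74 to 2.13.

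On the high fat diet all 3 ApoeKO_HFD libraries lay below both WT_HFD libraries: ApoeKO_HFD minus WT_HFD was −0.31 ± 0.27 (adjusted p = 1.0, edgeR). The difference of the 2 genotype differences, which is the interaction, was −1.59 ± 0.37 (adjusted p = 0.143, edgeR). It was below the threshold with DESeq2 (adjusted p = 0.0096), without the filter on low counts and without ApoeKO_CD replicate 1 (adjusted p = 0.0399, edgeR). Between diets in the ApoE KO libraries, ApoeKO_HFD minus ApoeKO_CD was −0.54 ± 0.24 (adjusted p = 1.0, edgeR).

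Irgm1 encodes a GTPase that regulates the effector GTPases of its family and autophagy. It was counted 6 to 53 times in a library. The WT_CD libraries stood at 0.35, 0.51 and 0.23 CPM and the WT_HFD libraries at 1.07 and 0.76 CPM. The ApoeKO_CD libraries stood at 0.98, 0.48 and 1.34 CPM and the ApoeKO_HFD libraries at 0.65, 0.52 and 0.60 CPM. WT_CD was the lowest group, and 1 ApoeKO_CD library overlapped it. The difference was 1.39 ± 0.46 on the log2 scale in ApoeKO_CD against WT_CD (adjusted p = 0.162, edgeR) and 1.33 ± 0.50 in WT_HFD against WT_CD (adjusted p = 0.28, edgeR). Its interaction was −2.005 ± 0.66 (adjusted p = 0.43, edgeR), of the same sign as for Iigp1. With each library left out the first difference ranged from 1.04 to 1.70, with an adjusted p of 0.039 by edgeR without WT_CD replicate 2 and of up to 0.453 otherwise.

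Igtp encodes a further regulatory GTPase of this family, also called Irgm3. It stood at 0.70, 3.10 and 1.47 CPM in WT_CD and at 1.74, 3.06 and 3.49 CPM in ApoeKO_CD. WT_HFD gave 2.14 and 2.29 CPM and ApoeKO_HFD 1.72, 1.83 and 2.05 CPM. WT_CD replicate 2 lay above all libraries outside ApoeKO_CD, so the groups overlapped, and the difference of ApoeKO_CD from WT_CD was 0.67 ± 0.38 (adjusted p = 0.4, edgeR). Without that library the difference was 1.37 (adjusted p = 0.0175, edgeR), and without WT_CD replicate 1 it was 0.27 (0.712).

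Of the 3 guanylate-binding proteins, Gbp2 and Gbp3 lay below 0 and Gbp7 above it in ApoeKO_CD against WT_CD, but Gbp3 was at 0.13 without WT_CD replicate 1. Gbp2, which acts on pathogen membranes, stood at 2.18, 0.75 and 1.84 CPM in WT_CD and at 1.73 and 1.40 CPM in WT_HFD. It stood at 1.15, 0.80 and 0.83 CPM in ApoeKO_CD and at 0.84, 0.82 and 1.08 CPM in ApoeKO_HFD. Both WT_HFD libraries lay above the ApoeKO_HFD libraries, and WT_CD replicate 2 lay below all others. The difference of ApoeKO_HFD from WT_HFD was −0.77 ± 0.40 (adjusted p = 1.0, edgeR) and that of ApoeKO_CD from WT_CD −0.78 ± 0.37 (adjusted p = 0.311, edgeR). Without WT_CD replicate 2 the latter was −1.11 (adjusted p = 0.0297, edgeR), and without WT_CD replicate 1 it was −0.48 (0.565). Gbp3 gave −0.42 ± 0.41 and Gbp7 0.24 ± 0.35 in ApoeKO_CD against WT_CD.

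**Figure D3:**
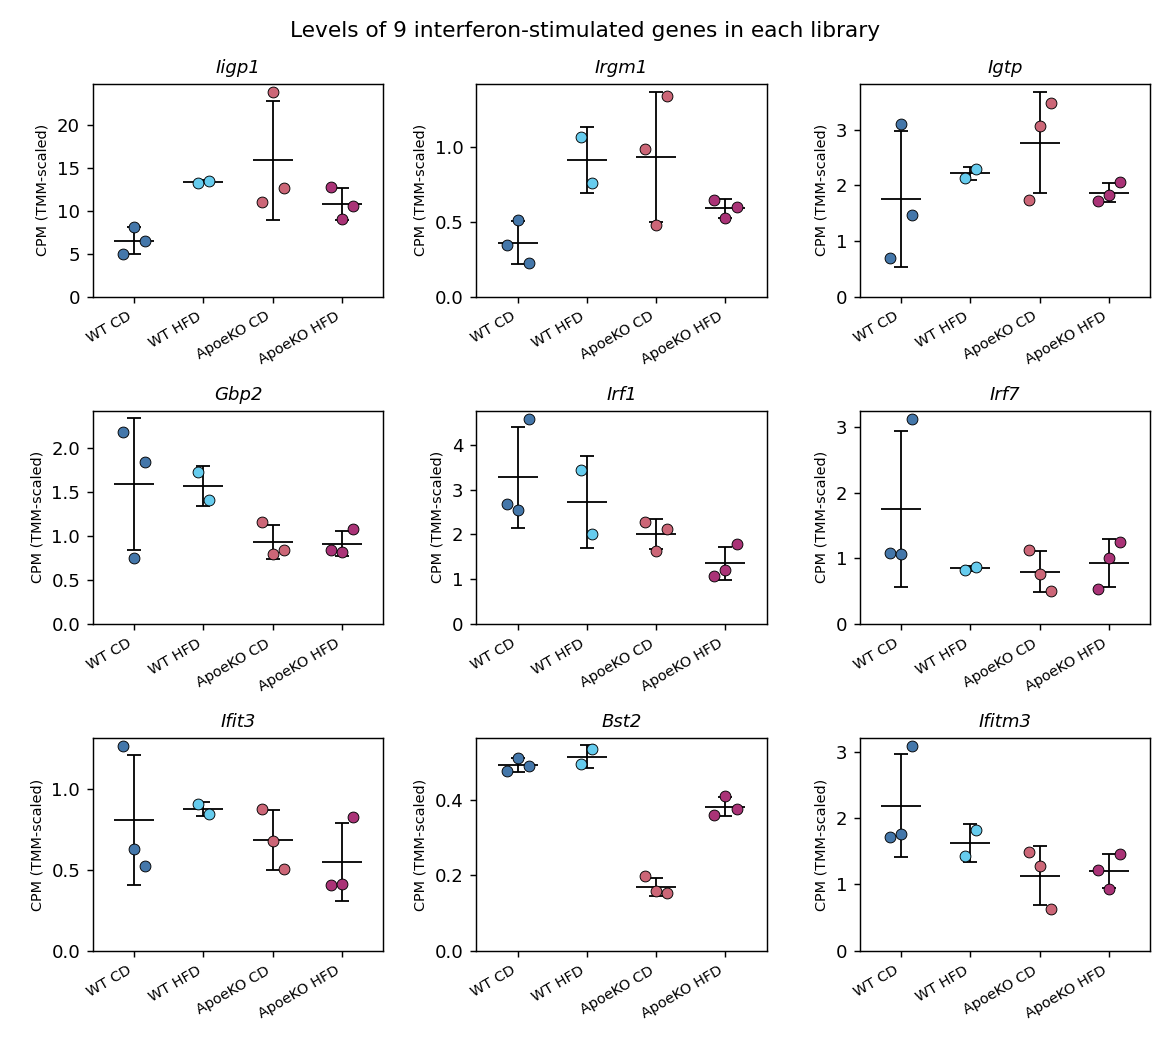
TMM-scaled CPM (y axis, from 0) of 9 interferon-stimulated genes in each library (points) by group (x axis), with the group mean and 1 SD as bars (n = 3, or 2 for WT_HFD). The 3 WT_CD points of Iigp1 lie below every other library, those of Irf1 lie above the ApoeKO_CD and ApoeKO_HFD points, and the ApoeKO_CD points of Bst2 lie below all others.

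Among the regulators, Irf1, Irf7, Stat2 and Trim25 had their highest group mean in WT_CD. Irf1 encodes a transcription factor that interferon gamma induces and that itself binds ISRE-like elements, and its window held a GAS and no ISRE core. Its level was 2.69, 2.55 and 4.59 CPM in WT_CD and 3.45 and 2.00 CPM in WT_HFD. It was 2.28, 1.63 and 2.12 CPM in ApoeKO_CD and 1.08, 1.19 and 1.78 CPM in ApoeKO_HFD. All ApoE KO libraries lay below all WT_CD libraries, on either diet, and the ApoeKO_HFD libraries also lay below both WT_HFD libraries. The difference of ApoeKO_HFD from WT_CD was −1.27 ± 0.30 (adjusted p = 0.104, edgeR), and that of ApoeKO_CD from WT_CD −0.69 ± 0.30 (adjusted p = 0.266, edgeR). Against WT_HFD, ApoeKO_HFD differed by −1.002 ± 0.33 (adjusted p = 1.0, edgeR), and against ApoeKO_CD by −0.58 ± 0.31 (adjusted p = 1.0, edgeR). DESeq2 called the first of these (adjusted p = 0.0151), and edgeR called it without WT_CD replicate 2 (−1.42, adjusted p = 0.0125).

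Irf7, the transcription factor that drives interferon alpha genes, rested on a single library. It stood at 1.07, 1.06 and 3.12 CPM in WT_CD, 0.82 and 0.87 CPM in WT_HFD, 1.13, 0.76 and 0.51 CPM in ApoeKO_CD and 0.53, 1.01 and 1.25 CPM in ApoeKO_HFD. WT_CD replicate 3 lay far above the other 10 libraries. The differences from WT_CD were −1.04 ± 0.51 in WT_HFD, −1.13 ± 0.46 in ApoeKO_CD and −0.92 ± 0.45 in ApoeKO_HFD, with adjusted p values of 0.4, 0.238 and 0.367 by edgeR. Stat2 and Irf9, which encode parts of the complex that binds the ISRE, gave −0.57 ± 0.28 and 0.15 ± 0.24 in ApoeKO_CD against WT_CD. Stat2 was highest in WT_CD replicate 1 at 6.51 CPM, against 2.33 to 4.11 CPM in the other 10 libraries. Trim25 stood at 8.32, 9.46 and 5.53 CPM in WT_CD, 6.99 and 7.15 CPM in WT_HFD, 6.25, 6.92 and 6.20 CPM in ApoeKO_CD and 6.43, 7.58 and 6.94 CPM in ApoeKO_HFD. Its differences from WT_CD lay between −0.27 and −0.14 with standard errors of 0.18 to 0.20. Usp18, which removes ISG15 from proteins and damps the type I receptor, was counted 4 to 32 times and gave 0.47 ± 0.58.

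None of the 4 sensors passed an unadjusted p of 0.05 by edgeR in any comparison. Ifih1 (MDA5) and Ddx58 (RIG-I), the cytoplasmic sensors of viral RNA, gave 0.05 ± 0.31 and −0.28 ± 0.31 in ApoeKO_CD against WT_CD. Dhx58 (LGP2), their regulator, gave −0.83 ± 0.61 in the same comparison. Zbp1 stood at 0.38, 0.39 and 0.38 CPM in WT_CD, 0.16 in both WT_HFD libraries, 0.48, 0.08 and 0 CPM in ApoeKO_CD and 0.12, 0.11 and 0.10 CPM in ApoeKO_HFD. The WT_CD libraries lay above those of both high fat groups, on 0 to 17 counts a library. Its difference of ApoeKO_HFD from WT_CD was −1.76 ± 0.91 (adjusted p = 0.392, edgeR).

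The antiviral effectors together were highest in WT_CD replicates 1 and 3 and lowest in ApoeKO_CD replicate 3. The summed level of this group, Isg15 included, was 13.3, 10.2 and 16.9 CPM in WT_CD, 10.7 and 10.1 CPM in WT_HFD, 10.7, 9.90 and 5.87 CPM in ApoeKO_CD and 7.92, 8.96 and 11.3 CPM in ApoeKO_HFD. The WT_CD range overlapped those of the other groups. In ApoeKO_CD against WT_CD, Rsad2 (viperin) gave −1.21 ± 0.41 (adjusted p = 0.169, edgeR), Oas2 −1.39 ± 0.49 (0.181), Oasl2 −1.23 ± 0.47 (0.216) and Ifit1, which binds viral RNA lacking cap methylation, −1.10 ± 0.45 (0.244). These values moved with single WT_CD libraries. Without WT_CD replicate 2, Oas2 was at −1.84 (adjusted p = 0.00488, edgeR) and Rsad2 at −1.51 (0.0195). Oas2 was at −1.04 (0.344) without WT_CD replicate 1, and Rsad2 at −0.55 (0.557) without WT_CD replicate 3. Rsad2 was highest in WT_CD replicate 3 at 5.11 CPM, and the other 10 libraries lay between 0.99 and 2.74 CPM. Oas2 stood at 2.44 and 2.26 CPM in WT_CD replicates 1 and 3 but at 0.43 CPM in replicate 2, while the other 8 libraries lay at 0.35 to 0.98 CPM.

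The remaining effectors did not pass an unadjusted p of 0.05 by edgeR in any of the 6 comparisons. Ifit3 stood at 1.26, 0.63 and 0.53 CPM in WT_CD, 0.90 and 0.85 CPM in WT_HFD, 0.87, 0.68 and 0.51 CPM in ApoeKO_CD and 0.41, 0.41 and 0.83 CPM in ApoeKO_HFD. Both WT_HFD libraries lay above the ApoeKO_HFD libraries, with a difference of ApoeKO_HFD from WT_HFD of −0.66 ± 0.48 (adjusted p = 1.0, edgeR). Ifit2, which like Ifit1 acts on viral RNA, was the effector that did not lie below 0 in ApoeKO_CD against WT_CD, at 0.24 ± 0.29. Its level of 1.504 to 3.40 CPM came to a mean of 0.63 CPM per kilobase, against 0.27 to 0.41 for the other 3 IFIT genes. Mx1 and Mx2, dynamin-like GTPases that block virus replication, gave −0.69 ± 0.82 and −0.57 ± 0.43. Oas1a, Oas3, Oasl1 and Ifit3b gave −1.15 ± 0.76, −1.18 ± 0.94, −0.10 ± 0.77 and −0.01 ± 0.61, each from at most 26 counts a library.

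None of the membrane and other genes was called. Bst2 encodes tetherin, which holds budding virus at the cell surface. It stood at 0.47, 0.51 and 0.49 CPM in WT_CD, 0.49 and 0.53 CPM in WT_HFD, 0.20, 0.16 and 0.15 CPM in ApoeKO_CD and 0.36, 0.41 and 0.38 CPM in ApoeKO_HFD. The ApoeKO_CD libraries lay below all others and the ApoeKO_HFD libraries between those and the Wt libraries, on 4 to 24 counts a library. ApoeKO_CD differed from WT_CD by −1.51 ± 0.51 (adjusted p = 0.168, edgeR), ApoeKO_HFD from WT_CD by −0.36 ± 0.47 (adjusted p = 0.756, edgeR) and ApoeKO_HFD from ApoeKO_CD by 1.15 ± 0.51 (adjusted p = 1.0, edgeR). With so few counts, counting error is a large part of these standard errors.

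Ifitm3 stood at 1.71, 1.77 and 3.08 CPM in WT_CD, 1.42 and 1.83 CPM in WT_HFD, 1.49, 1.27 and 0.63 CPM in ApoeKO_CD and 1.22, 0.93 and 1.45 CPM in ApoeKO_HFD. The WT_CD libraries lay above all ApoE KO libraries, by a narrow gap. The differences were −0.96 ± 0.35 in ApoeKO_CD (adjusted p = 0.196, edgeR) and −0.85 ± 0.34 in ApoeKO_HFD (adjusted p = 0.278, edgeR). Xaf1, a pro-apoptotic inhibitor of XIAP, stood at 0.41, 0.78 and 0.75 CPM in WT_CD, 0.33 and 0.60 CPM in WT_HFD, 0.37, 0.28 and 0.35 CPM in ApoeKO_CD and 0.62, 0.63 and 0.53 CPM in ApoeKO_HFD. Like that of Bst2, its group mean was lowest in ApoeKO_CD, and all 3 ApoeKO_HFD libraries lay above the ApoeKO_CD libraries. Its interaction was 1.27 ± 0.67 (adjusted p = 0.649, edgeR).

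Ifi35 stood at 3.26, 1.49 and 0.98 CPM in WT_CD, 1.83 and 1.98 CPM in WT_HFD, 2.73, 2.23 and 2.17 CPM in ApoeKO_CD and 2.92, 2.02 and 1.83 CPM in ApoeKO_HFD. WT_CD held both the highest and the lowest library, and the difference of ApoeKO_CD was 0.30 ± 0.34. Parp14, a mono-ADP-ribosyltransferase, stood at 3.68 to 6.10 CPM in WT_CD and at 5.61 to 6.92 CPM in ApoeKO_CD, a difference of 0.43 ± 0.21 (adjusted p = 0.326, edgeR). Ifi27, Rtp4 and Ifi44 gave −0.20 ± 0.34, −0.16 ± 0.58 and −0.52 ± 0.64 in the same comparison.

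Groups that did not overlap were counted for each comparison. In ApoeKO_CD against WT_CD 7 of 36 genes did not overlap, Iigp1 higher and Bst2, Dhx58, Ifit1, Ifitm3, Irf1 and Xaf1 lower, beside 16.6% of all genes tested. In ApoeKO_HFD against WT_CD 6 of 36 did not, Iigp1 and Irgm1 higher and Bst2, Ifitm3, Irf1 and Zbp1 lower, beside 15.6%. In WT_HFD against WT_CD 4 of 36 did not, Iigp1 and Irgm1 higher and Irf7 and Zbp1 lower, beside 24.7%. Between diets in the ApoE KO libraries, Bst2 and Xaf1 were higher on the high fat diet without overlap, beside 9.03% of all genes in either direction. On the high fat diet 9 of 36 genes did not overlap, beside 21.7% of all genes in either direction. The 9 were Bst2, Gbp2, Ifit3, Igtp, Iigp1, Irf1, Irgm1, Stat2 and Zbp1, lower in ApoeKO_HFD than in WT_HFD. The share of all genes that were lower without overlap was not counted, so the direction of the 9 has no background to be set beside. Iigp1 alone of the 36 genes did not overlap in opposite directions on the 2 diets, higher in the ApoE KO libraries on chow and lower on the high fat diet, beside 1.88% of all genes. Between the diets, 0 of 36 did so under the 2 genotype labels, beside 1.46%. With 2 libraries in WT_HFD, groups fail to overlap more often than with 3.

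By library, WT_CD replicate 3 was the highest of the 11 for 10 of the 36 genes and WT_CD replicate 1 for 9. The same libraries were the highest for 19.9% and 14.7% of all genes tested. In WT_CD replicate 1 the genes were Gbp2, Gbp3, Ifi35, Ifit3, Mx1, Oas2, Oas3, Oasl1 and Stat2, and in replicate 3 they were Ddx58, Ifit1, Ifit3b, Ifitm3, Irf1, Irf7, Mx2, Oas1a, Oasl2 and Rsad2. ApoeKO_CD replicate 3 was the lowest for 13 of the 36 genes and for 7.21% of all genes tested, while it was the highest for Igtp and Irgm1.

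Of the genes that make or carry the interferon signal, none was called by edgeR in any comparison. All 21 interferon genes stayed below the filter, with at most 10 counts in a library. Ifng was counted 0 to 6 times and Ifnb1 0 to 3 times. The receptors and kinases were present: Ifngr2 stood at 48.2 to 78.6 CPM, Jak1 at 42.6 to 71.9, Ifnar1 at 4.25 to 7.81, Ifngr1 at 4.28 to 7.03, Tyk2 at 3.73 to 6.45 and Ifnar2 at 2.15 to 4.10 CPM. For Ifnar1, Ifngr2 and Jak1 the difference of ApoeKO_CD from WT_CD was 0.38 ± 0.18, 0.29 ± 0.14 and 0.31 ± 0.17. Of the 20 receptor and JAK-STAT genes tested, 4 were higher at an unadjusted p under 0.05 by edgeR and 0 lower in that comparison, with a median log2 fold change of 0.21. Of all genes tested, 7.96% were higher and 7.91% lower at that p. The 16 tested genes of interferon induction had 0 higher and 1 lower with a median of −0.06. Of 48 further interferon-stimulated genes tested, 1 was higher and 7 lower, with a median of −0.24.

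**Figure D4:**
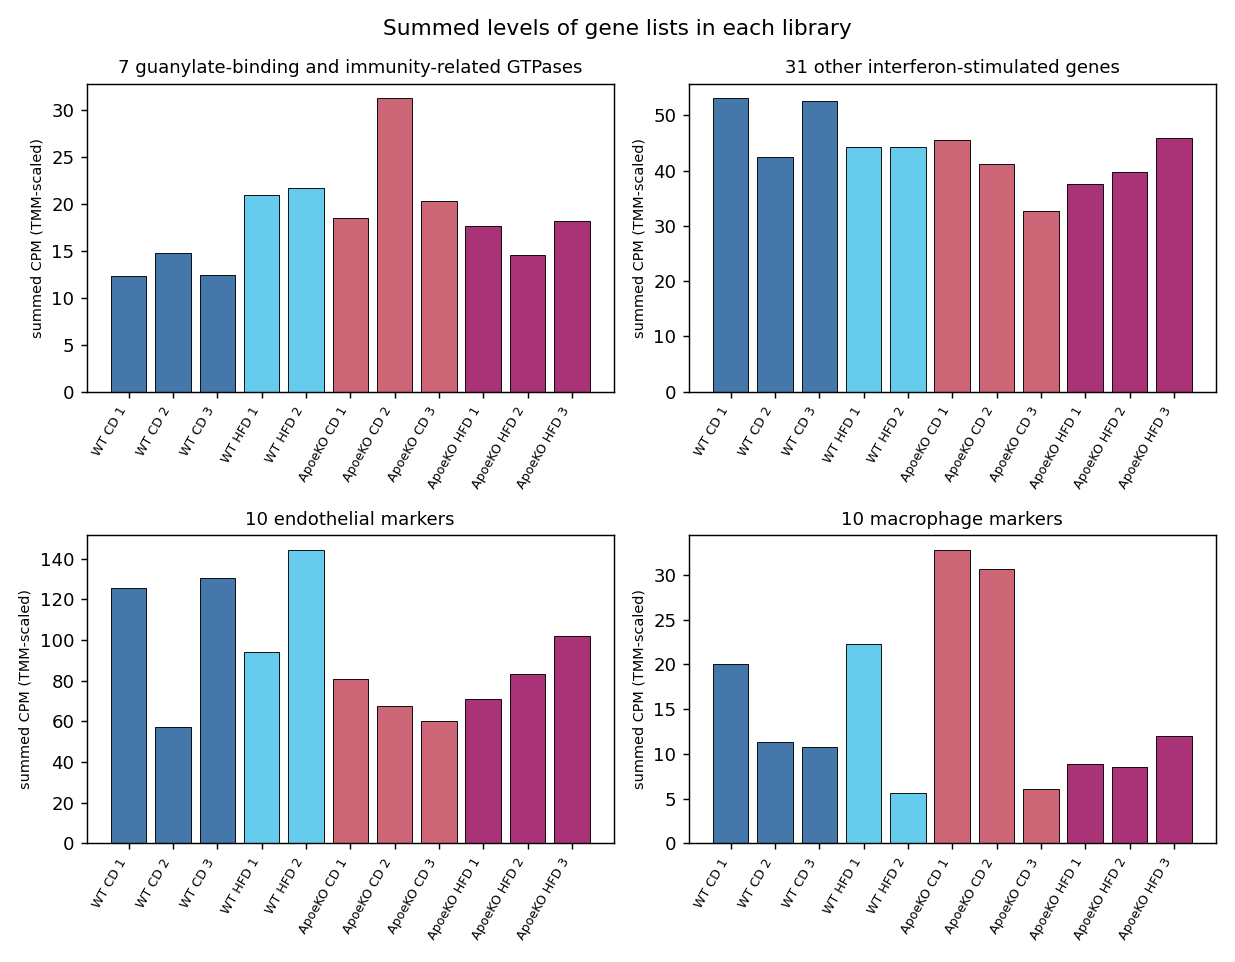
Summed TMM-scaled CPM (y axis, from 0) in each of the 11 libraries (x axis, coloured by group) of the 7 guanylate-binding and immunity-related GTPases, the 31 other members, 10 endothelial markers and 10 macrophage markers. The GTPase bars are lowest in WT_CD replicates 1 and 3, where the bars of the other members are highest, and the endothelial bars are high in those libraries and in WT_HFD replicate 2. Iigp1 alone is a large part of the GTPase bars, at 4.93 of 12.3 CPM in WT_CD replicate 1 and 23.9 of 31.2 CPM in ApoeKO_CD replicate 2. The order of the GTPase bars therefore largely follows this gene.

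Markers of other cell types moved with the libraries. The 31 members outside the GTPases summed to 53.1, 42.5 and 52.6 CPM in WT_CD, and the endothelial markers to 126, 57.1 and 131 CPM in the same libraries. In ApoeKO_CD those members summed to 45.6, 41.2 and 32.6 CPM and the endothelial markers to 80.7, 67.3 and 60.3 CPM. WT_HFD replicate 2 had the highest endothelial sum, 144 CPM, with 44.3 CPM of those members. All 10 endothelial markers passed the filter, and in ApoeKO_CD against WT_CD 10 of 10 lay below 0 with a median of −0.64, 4 of them at an unadjusted p under 0.05 by edgeR and 0 called. The 9 macrophage markers tested of 10 had a median of 0.77 in that comparison, with 7 of 9 above 0 and 0 called. In ApoeKO_HFD against ApoeKO_CD all 9 lay below 0 with a median of −1.18, 4 of them at an unadjusted p under 0.05 by edgeR, and in the interaction all 9 lay below 0 with a median of −1.28; Iigp1 lay below 0 in both. In WT_HFD against WT_CD, where Iigp1 was at 1.05, their median was 0.04. The macrophage sum was 32.8, 30.7 and 6.12 CPM in ApoeKO_CD and 19.99, 11.3 and 10.7 CPM in WT_CD. ApoeKO_CD replicate 3, with the macrophage sum of 6.12 CPM, had 12.7 CPM of Iigp1, above all 3 WT_CD libraries. The 4 atrial cardiomyocyte markers summed to 7.24 to 174.5 CPM. All 4 lay below 0 in ApoeKO_HFD against ApoeKO_CD, with a median of −1.99, and in the interaction, with a median of −1.36. In the interaction 5 of 6 fibroblast and 5 of 6 pericyte and smooth muscle markers lay below 0, while 7 of 10 endothelial markers lay above 0. The 8 lymphocyte and neutrophil markers summed to 0.43 to 1.13 CPM, and no marker list had a gene at 0 in all libraries. Their part in the members' values was not tested. In bulk RNA, fewer cells of a type and less RNA per cell cannot be told apart.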

How the data were processed

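RNA of cardiomyocytes was measured in 12 libraries made with the SMART-Seq Stranded kit, per the labels' protocols. The submitters' processing notes name HTSeq 0.13.5, STAR 2.7a, Trimmomatic 0.39 and the build GRCm38 (mm10). Each deposited file holds the authors' raw read counts per Ensembl gene, with no normalization. Symbols, exon lengths and overlaps came from GENCODE M21 (GRCm38), which named 55154 of 55335 identifiers.

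WT_HFD replicate 3 was left out, as the rule for these genes states, which left 11 libraries. Genes were filtered with filterByExpr by group, scaled with TMM and tested with the robust quasi-likelihood F test of edgeR 4.0.16 in R 4.3.3, with 1 mean per group and 7 residual degrees of freedom (common biological coefficient of variation 0.2003). Two-sided p-values were adjusted over 16932 genes within each of 6 comparisons (Benjamini-Hochberg), and calls were made below an adjusted p of 0.05. CPM are counts divided by the TMM-scaled library size in the usual unit, and CPM per kilobase divide by exon length. A standard error is the fitted log2 fold change divided by the square root of its F value. The scripts were tested on simulated data.

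The 38 genes, their role groups and the pathway and marker lists were chosen with earlier results of these data known. Values in every library are given for called genes, for the 3 smallest p-values in each comparison and for the 5 highest levels per kilobase. Some other genes were named for their place in a role group or after their values were seen: Rsad2, Oas2, Zbp1 and Stat2 among the members. Mb21d1, on the list of interferon induction, has no row under that symbol and was not analysed here. The values of 1 gene of the pathway lists are not reported here. Between replicates of a group chi-square divided by its degrees of freedom was 24.5 to 190, so none was counted as a duplicate. Same-numbered libraries were not paired: the correlation of their deviations from the group means was −0.18 to 0.19 over 15 pairs and exceeded 0.1 in 1. Alternatives were all 12 libraries, RLE factors, nuclear genes only, DESeq2 1.42.0, voom with sample weights in limma 3.58.1, unfiltered genes, only genes with at least 50 counts in 3 libraries, a fit of just the 2 groups in question, a block for the replicate number, and each library left out in turn. Promoter windows are those of RefSeq for GRCm38.p6. With few counts a gene, counting error limits most members.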

Additional observations from a re-analysis of the deposited data

Results flagged for a closer look

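The libraries of Iigp1 did not overlap between the genotype labels on either diet, with opposite signs. On chow all 3 ApoeKO_CD libraries lay above all 3 WT_CD libraries, with a log2 difference of 1.28 ± 0.25 (SE). On the high fat diet all 3 ApoeKO_HFD libraries lay below both WT_HFD libraries, with a difference of −0.31 ± 0.27 (adjusted p = 1.0, edgeR), close to its standard error. The interaction that tests this difference was −1.59 ± 0.37 (adjusted p = 0.143, edgeR). The 9 tested macrophage markers also all lay below 0 in the interaction, with a median of −1.28 and 0 called. They were not alone: the 4 atrial cardiomyocyte markers all lay below 0 in it too, with a median of −1.36. The same held for 5 of 6 fibroblast and 5 of 6 pericyte and smooth muscle markers, while 7 of 10 endothelial and 5 of 8 cardiomyocyte markers lay above 0. Of all genes tested, 1.88% had groups that did not overlap in opposite directions on the 2 diets. The WT_HFD group held 2 libraries, and Apoe itself was higher under the ApoE KO label on chow but lower under it on the high fat diet. The part of the labels and of any of these marker lists in this pattern was not tested.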

How the results depend on the processing

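Of 369 values obtained for the 19 named log2 fold changes under the alternatives, 352 kept their direction and their side of the threshold, 10 passed it only under the alternative, 7 no longer passed it and 0 changed sign. Only 1 of the 19, Iigp1 in ApoeKO_CD against WT_CD, was called in the main fit, so the others had no call to lose. That call was kept under 13 alternatives and lost under 7. Where it was lost, the difference was 1.28 with all 12 libraries, 1.37 with voom and 1.26 with only the 2 groups. It was 0.88 to 1.28 with 1 of 4 libraries left out. Over all 11 leave-outs, 7 of which kept the call, the difference ranged from 0.88 to 1.48. The count of members called in that comparison was 1, but 0 with all 12 libraries, with voom and with only the 2 groups, 2 without the filter, and 0 to 6 with a library left out. In ApoeKO_HFD against WT_CD it was 0, but 1 with DESeq2, 2 without the filter and 0 to 3 with a library left out. In WT_HFD against WT_CD it was 0, but 1 with DESeq2 and 1 without the filter. In the interaction it was 0, but 1 with DESeq2, 1 without the filter and 0 to 1 with a library left out. With genes kept at 50 counts in 3 libraries, the members' median log2 fold change was −0.055 in ApoeKO_HFD against WT_CD, −0.24 in ApoeKO_CD against WT_CD and −0.016 in the interaction. This filter tests fewer members. With all 12 libraries it was 0.11 in WT_HFD against WT_CD, −0.44 in ApoeKO_HFD against WT_HFD and −0.087 in the interaction. Leaving out each library gave medians of −0.37 to −0.18 in ApoeKO_HFD against WT_CD, −0.63 to −0.22 in ApoeKO_CD against WT_CD, −0.21 to 0.20 in ApoeKO_HFD against ApoeKO_CD and 0.030 to 0.34 in the interaction. With the replicate block, Iigp1 was at 1.26 in ApoeKO_CD against WT_CD, 1 member was called there and 0 in the other comparisons, the medians were −0.39 there, −0.33 in ApoeKO_HFD against WT_CD and 0.18 in the interaction, and no call changed. Except where the number of members or libraries differs, the cause was not tested. Members with few counts limit every median. The standard errors given are not a limit of detection: differences well above them were also not called, such as Iigp1 in WT_HFD against WT_CD at 1.05 ± 0.28.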

Other observations

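Outside the 38 genes, and chosen after its values were seen, F830016B08Rik lay in part across the groups as Iigp1 did. RefSeq gives Ifgga4 as its other name, that of an interferon-gamma-inducible GTPase gene. It stood at 4.84, 7.61 and 3.80 CPM in WT_CD, 12.5 and 9.15 CPM in WT_HFD, 10.6, 15.6 and 14.3 CPM in ApoeKO_CD and 8.56, 5.04 and 8.57 CPM in ApoeKO_HFD. Every WT_HFD and ApoeKO_CD library lay above every WT_CD library, but the ApoeKO_HFD libraries overlapped those of WT_CD, unlike for Iigp1. The difference of ApoeKO_CD from WT_CD was 1.32 ± 0.25 (SE, log2; adjusted p = 0.0252, edgeR), and the interaction was −1.86 ± 0.37 (adjusted p = 0.0474, edgeR). Irgm2, which shares part of its sequence with Igtp, was at 2.56, 5.65 and 2.33 CPM in WT_CD and at 3.29, 5.49 and 3.87 CPM in ApoeKO_CD, a difference of 0.26 ± 0.30 (adjusted p = 0.711, edgeR). Its WT_CD replicate 2 was the highest of the 11 libraries, as Igtp in the same library was the highest of its group.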
